A study of Mus musculus with 101 samples.

Results

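The comparison described here is the response of epididymal white fat to a high-fat diet (HFD) in mice that lack Inhbe. It sets 8 libraries of Inhbe knockout (KO) mice on HFD against 7 libraries of Inhbe KO mice on chow, 15 of the 101 libraries of the series, chosen by their genotype, diet and depot labels. All mice were male, on a C57BL/6NTac background and without other treatment, so the labels of the 2 KO groups differ in diet alone. Where the KO response is set beside that of animals with Inhbe, the wild-type (WT) mice of the same experiment and depot are used, 8 libraries on HFD and 8 on chow. The labels give neither the age of the mice, the length of feeding, nor the kind of deletion. The other libraries of the series, from subcutaneous fat and from an experiment that raised Inhbe in the liver by a viral vector, are not used.

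Inhbe encodes the inhibin beta E chain, which pairs with itself to form activin E, a hormone of the TGF-beta family that the liver secretes. Fat cells carry ALK7, a type I receptor encoded by Acvr1c, which passes activin signals to SMAD proteins and is known to restrain lipolysis, the release of stored fat. A high-fat diet enlarges fat cells, and epididymal fat of male mice is known for the macrophages, matrix and tissue remodelling that then follow. Lipid-associated macrophages, marked by Trem2, gather around dying fat cells and digest their lipid in lysosomes. The diet comparison in KO fat asks which of these responses take place without Inhbe.

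Values are levels in CPM, estimated counts per 1000000 counts of a library after TMM scaling, or log2 fold changes of HFD over chow with their standard error (SE). A gene rose or fell where the adjusted p of edgeR's quasi-likelihood test was under 0.05 across the 15042 genes tested. Fold changes of 1 genotype have that genotype's name, and the difference of the responses is the KO log2 fold change minus the WT one, tested as an interaction. These contrasts share no libraries between genotypes, but all 31 epididymal libraries gave 1 estimate of the spread. The libraries held 12970509 to 19680968 estimated counts, and in the KO libraries 3 counts stood for 0.172 to 0.231 CPM. The labels call the libraries biological replicates, and p-values measure the spread between them.

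Inhbe itself (chromosome 10, 127349402 to 127351848, GRCm38.p6) was at 0 counts in all 15 KO libraries. WT fat held 2 counts in 1 HFD library and 0 in the other WT libraries, so the genotype cannot be checked in this tissue. Acvr1c (chromosome 2, 58267453 to 58357896), the receptor gene, had 93.5 CPM in the lowest, 283.5 CPM in the median and 388 CPM in the highest KO HFD library, against 256, 409 and 509 CPM in KO chow libraries. These ranges overlapped, and its KO log2 fold change of -0.56 ± 0.26 missed the threshold (adjusted p = 0.0786, 95% interval -1.07 to -0.06). The KO fall passed with library totals in place of TMM scaling (-0.79, adjusted p = 0.0103) and in DESeq2 (-0.61, adjusted p = 0.0446). It did not pass in the other alternatives run. In WT fat Acvr1c fell by 2.02 on the log2 scale (adjusted p = 9.56e-08). The difference of the responses was 1.46 ± 0.36 (adjusted p = 0.00464).

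Several libraries stood apart. KO HFD library 4 spread more widely around its group than the others, with an interquartile width of 1.44 on the log2 scale against 0.25 to 0.52 in the other 7. Markers of skeletal muscle summed to 1536 CPM in KO HFD library 1 and 672 CPM in library 5, against 95.7 to 317 CPM in the other KO HFD libraries and 13.6 to 177 CPM in KO chow libraries. Epididymis markers split the KO HFD libraries, with 1314 to 2528 CPM in libraries 3, 6, 7 and 8 and 0.545 to 13.7 CPM in libraries 1, 2, 4 and 5, against 7.89 to 6340 CPM in KO chow libraries. Mesothelium markers, of the sheet that covers the depot, summed to 28 to 269 CPM in KO HFD and 265 to 439 CPM in KO chow libraries. As checks of the tissue, the fat cell gene Fabp4 averaged 14100 ± 2139 CPM in KO HFD and 11200 ± 1818 CPM in KO chow libraries, and Adipoq averaged 1884 ± 596 CPM in KO HFD and 2219 ± 419 CPM in KO chow libraries (SD, n = 8 and 7). In bulk tissue fewer cells of a type and less RNA per cell cannot be told apart.

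**Figure D1:**
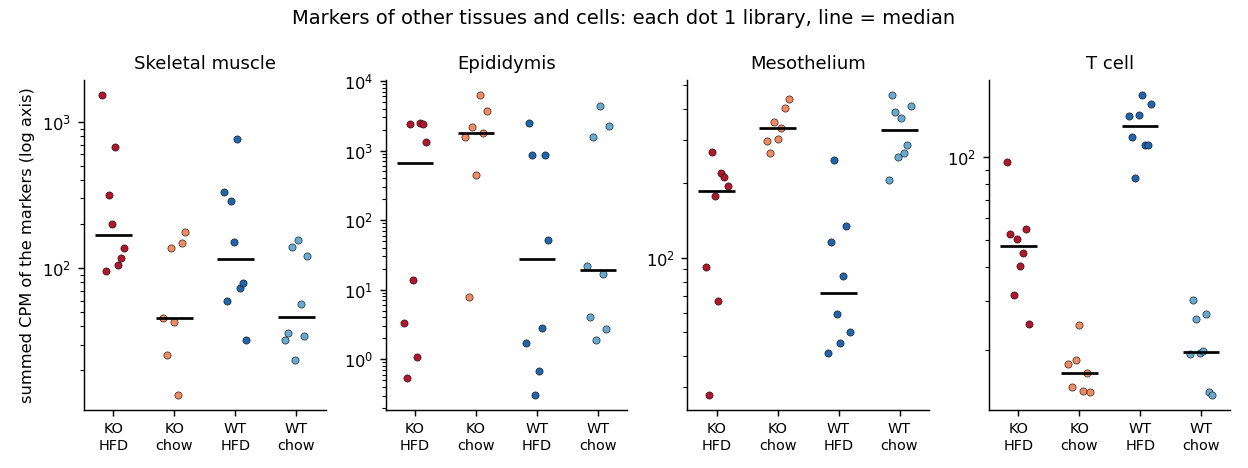
Summed CPM of the markers of skeletal muscle, epididymis, mesothelium and T cells (log axes) in each epididymal library, by group, with the group median as a line. Among KO libraries skeletal muscle was highest in KO HFD libraries 1 and 5, epididymis markers split the KO HFD libraries, mesothelium was lower and T cell markers were higher in KO HFD than in KO chow libraries, with ranges that overlapped for mesothelium (28 to 269 CPM against 265 to 439 CPM).

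In KO fat 3719 genes (24.7%) rose and 2098 genes (13.9%) fell on HFD, 5817 (38.7%) in all. Of these, 1369 changed at least 2-fold, 824 upward and 545 downward. Every KO HFD library lay above every KO chow library for 1141 genes (7.59%) and below for 443 (2.95%). In WT fat 4346 genes (28.9%) rose and 3794 (25.2%) fell, 8140 (54.1%) in all. Most of the KO response was shared in direction: 4324 genes changed the same way in both genotypes, 74.3% of the KO calls and 53.1% of the WT calls. The difference of the responses was called for 2487 genes (16.5%), 1178 (7.83%) with the KO response above the WT one and 1309 (8.7%) below it. Among the 4324 shared genes 905 had a called difference with the smaller change in KO and 68 with the larger change in KO. Another 1369 genes were called in KO alone, but the difference was called for only 396 of them. Genes called in both and upward had a median log2 fold change of 0.62 in KO and 0.81 in WT, and downward -0.67 in KO and -0.91 in WT.

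Counts over a gene list are to be read against these shares of all genes tested. The split between rises and falls depended on the scaling. Higher genes were 63.9% of the KO calls here, 28.6% with library totals in place of TMM (2020 rises and 5035 falls) and 53.3% in DESeq2. Library totals moved the median KO log2 fold change of all genes to -0.24, against 0.00 with TMM. Without KO HFD library 4 higher genes were 52.5% of the KO calls, 3189 rises and 2889 falls. Differences above 0 were 26.3% of those called with library totals.

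**Figure D2:**
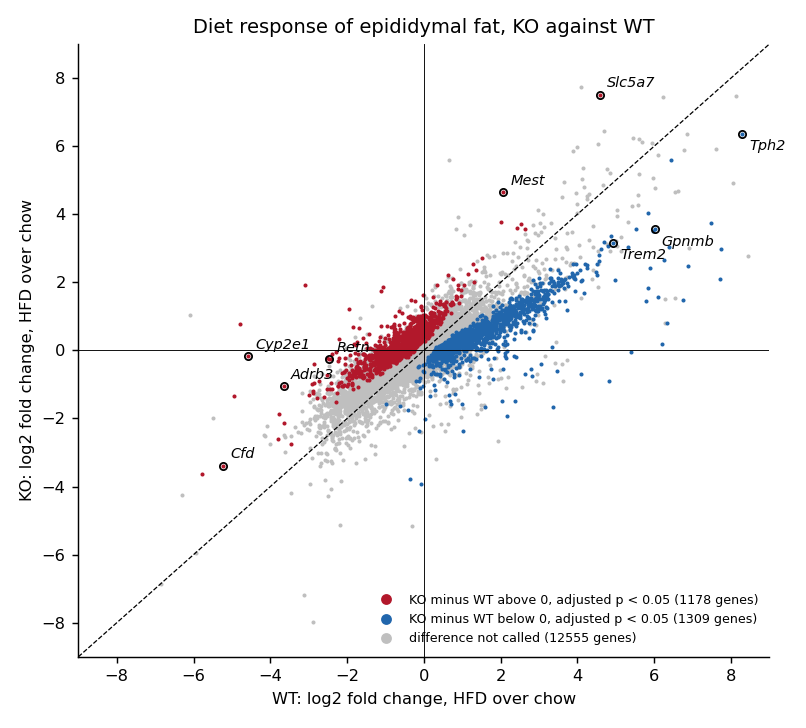
Log2 fold change of HFD over chow in KO fat (vertical axis) against that in WT fat (horizontal axis), 1 point per gene tested, with equal responses on the dashed line. Red and blue points are the 1178 and 1309 genes whose KO response was above or below the WT one (adjusted p under 0.05), and 3 genes lie outside the axes. Mest and Slc5a7 lie above the line among the rises, Trem2 and Gpnmb below it, and Retn and Cyp2e1 lie near 0 in KO and well below 0 in WT.

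The genes that rose most in KO fat were of several kinds. Slc5a7, which encodes the high-affinity choline transporter, had 23.1, 65.1 and 80.8 CPM in the lowest, median and highest KO HFD library, against 0, 0.19 and 0.758 CPM in KO chow libraries. All 8 KO HFD libraries lay far above all 7 KO chow libraries. The log2 fold change was 7.51 ± 0.49 (adjusted p = 1.65e-12), and 2.92 ± 0.59 above that in WT (adjusted p = 0.00081), where the means were 176 CPM on HFD and 7.31 CPM on chow. Mest, an imprinted gene of a hydrolase-fold protein known to follow fat expansion, had 178, 295 and 447 CPM in the lowest, median and highest KO HFD library and 7.6, 10.7 and 17.1 CPM in KO chow libraries. Its groups did not overlap, and the rise was 24.9-fold, a log2 fold change of 4.64 ± 0.23 (adjusted p = 1.31e-15). In WT fat Mest was higher on both diets, at 808 ± 191 CPM on HFD and 193 ± 47.7 CPM on chow (SD, n = 8 each), and its response was 2.07, a difference of 2.57 ± 0.27 (adjusted p = 3.06e-07). Slc5a7 and Mest belong to a list of 26 tested genes that an account of these same samples linked to Inhbe, of which 12 rose and 5 fell in KO fat, so the list is not independent evidence.

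Other genes of that list divided. Arhgef37, a gene of a nucleotide exchange factor family, had 27.3, 38.2 and 56.3 CPM in the lowest, median and highest KO HFD library, against 7.93, 9.68 and 13.5 CPM in KO chow libraries. Its groups did not overlap (1.93 ± 0.18, adjusted p = 1.39e-09), its WT log2 fold change of 0.34 was not called, and the difference was 1.60 ± 0.24 (adjusted p = 3.21e-05). Tfr2, a transferrin receptor gene, rose in KO by 2.14 ± 0.20 (adjusted p = 1.9e-09), and the difference from WT was -1.78 ± 0.27 (adjusted p = 3.39e-05). Klf14, a transcription factor gene of fat linked to body fat distribution in humans, had 0.456 to 4.46 CPM in KO HFD and 0.0655 to 1.59 CPM in KO chow libraries. That rise of 1.66 ± 0.41 (adjusted p = 0.00176) left the KO HFD levels below the WT HFD range of 4.83 to 13.2 CPM. They overlapped the WT chow range of 3.33 to 8.15 CPM. Cyp2f2, a cytochrome P450 gene known from lung and liver, fell in KO, with 19.3 to 68.9 CPM in KO HFD and 154 to 423 CPM in KO chow libraries (-2.86 ± 0.71, adjusted p = 0.00214). All 8 KO HFD libraries lay below the chow range, and the difference from WT was not called (-0.95 ± 0.95, adjusted p = 0.602). Without WT HFD libraries 4 and 5 that difference was 2.24 (adjusted p = 0.00208), so its direction rested on them.

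Tph2, the tryptophan hydroxylase known from serotonin neurons, had 22.5, 32.4 and 54.8 CPM in the lowest, median and highest KO HFD library, against 0.0655, 0.408 and 0.612 CPM in KO chow libraries. Its log2 fold change of 6.36 ± 0.33 (adjusted p = 3.95e-15) was 1.94 ± 0.49 below that in WT (adjusted p = 0.00576). Itgad, the CD11d integrin chain of macrophages, had 7.69 to 23.6 CPM in KO HFD and 0 to 0.525 CPM in KO chow libraries (log2 fold change 6.36 ± 0.49, adjusted p = 4.92e-11). Neither gene's groups overlapped. Cacng5, a calcium channel gamma subunit gene, had 263 counts over the KO HFD group and 3 counts over the KO chow group. The other 6 of the 10 largest rises, Xirp2, Myh4, Ckmt2, Ampd1, Ttn and Atp2a1, are known for striated muscle. All 6 lost their calls in limma voom with quality weights. Of the muscle markers given above 9 of 12 rose in KO fat and 8 of 12 in WT fat. The KO rises of these markers numbered 4 with only the 2 groups compared and 1 in limma voom. Myh4, a fast muscle myosin, had 0 to 571 CPM in KO HFD and 0 to 3.61 CPM in KO chow libraries. With a skeletal muscle score as covariate only Xirp2 of these 6 genes kept its call (3.11, adjusted p = 0.00498). Myh4 and Atp2a1 are themselves among the markers of that score, so their loss is not a separate check.

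Most of the 10 largest falls lost their call when an epididymis score was a covariate. Gpx5, an epididymal peroxidase, had 0 to 1.88 CPM in KO HFD and 0 to 5856 CPM in KO chow libraries, where the median was 0.316 CPM. It stayed low in KO HFD libraries 3, 6, 7 and 8 too, where the summed epididymis markers stood at 1314 to 2528 CPM. With that score the call of Gpx5 was lost, as were those of Rnase10, Defb48, Spink5, Slc38a5, Bpi, Klrb1c, Ros1 and Col6a4. Rnase10 is itself among the markers of the score, so its loss is not a separate check. Klrb1c, an NK cell receptor gene, reached 87.6 CPM in 1 KO chow library, where the median was 1.7 CPM, and had 0.477 to 1.89 CPM in KO HFD libraries. Serpina3b, a serine protease inhibitor gene, was below every KO chow library in all 8 KO HFD libraries, with 0.0681, 0.36 and 0.497 CPM in the lowest, median and highest KO HFD library against 1.22, 2.04 and 19.2 CPM in KO chow libraries. Its log2 fold change was -4.20 ± 0.73 (adjusted p = 4.51e-05), a call lost in limma voom with quality weights, and the difference from WT was not called (-0.74 ± 0.91, adjusted p = 0.694).

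Transcripts of mitochondria and of fatty acid oxidation rose together in KO fat. Of 24 nuclear genes of the respiratory chain, the machinery that burns fuel with oxygen, 23 rose and 0 fell, with a median log2 fold change of 0.52 against 0.00 for all genes. In WT fat 3 rose and 5 fell, and the difference was called above 0 for 18 and below 0 for 0. Of 19 fatty acid oxidation genes 18 rose in KO fat, with a median of 0.91, against 8 rises and 3 falls in WT fat. The difference was called above 0 for 14 of them and below 0 for 1, Cpt1a (0.55 in KO and 0.84 in WT). The 2 that did not pass in KO were Ndufb8 (0.21) and Ppara (0.07), a subunit of complex I and a nuclear receptor of fatty acids.

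Hadhb, the beta subunit of the mitochondrial trifunctional protein (chromosome 5, 30155253 to 30184593), had 534, 608 and 837 CPM in the lowest, median and highest KO HFD library, against 224, 276 and 326 CPM in KO chow libraries. Its groups were separate, and it rose 2.39-fold (log2 fold change 1.26 ± 0.12, adjusted p = 4.66e-09), 0.67 ± 0.17 above its rise in WT (adjusted p = 0.00564). Uqcrc1, a core subunit of complex III, had 192 to 457 CPM in KO HFD and 132 to 174 CPM in KO chow libraries, again without overlap. It rose by 0.75 ± 0.13 (adjusted p = 5.26e-05), while its WT log2 fold change was 0.00 (adjusted p = 0.983) and the difference 0.75 ± 0.18 (adjusted p = 0.00422).

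The 13 respiratory chain genes of the mitochondrial genome, a list added after values were seen, moved the same way. In KO fat 12 rose and 0 fell with a median log2 fold change of 0.89, the exception being ND5 (called without KO HFD library 4, 0.36, adjusted p = 0.0403), against 0 rises and 3 falls in WT fat. The difference was above 0 for all 13. COX1, a subunit of complex IV, had 36640, 45750 and 62880 CPM in the lowest, median and highest KO HFD library and 18820, 23640 and 27290 CPM in KO chow libraries. No KO HFD library fell into the chow range, and COX1 rose 2.04-fold (1.02 ± 0.12, adjusted p = 4.45e-08) against -0.04 in WT (difference 1.06 ± 0.16, adjusted p = 2.5e-05). Mitochondrially encoded transcripts took 11.8 to 16% of the counts in KO HFD libraries, 7.55 to 9.86% in KO chow, 4.99 to 7.51% in WT HFD and 5.92 to 7.9% in WT chow libraries. This share needs no scaling between libraries.

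**Figure D3:**
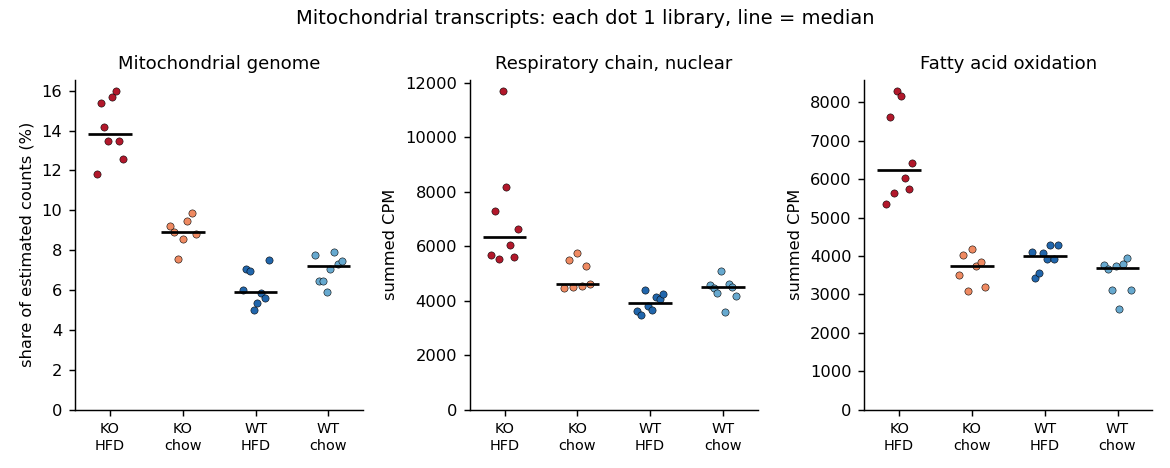
Share of estimated counts from the mitochondrial genome (percent), summed CPM of 24 nuclear respiratory chain genes and summed CPM of 19 fatty acid oxidation genes, 1 dot per library with the group median as a line. In the left and right panels every KO HFD library lay above every KO chow library, and in the middle panel the groups overlapped (5541 to 11710 CPM against 4484 to 5748 CPM), with KO HFD library 4 highest.

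With library totals 14 of the 24 nuclear respiratory chain genes and 15 of the 19 oxidation genes rose, and none fell in either list. A skeletal muscle score as covariate left 23 and 18 rises, and leaving out KO HFD library 4 left 21 and 16. The KO median of the respiratory chain list was 0.26 with library totals and 0.33 without KO HFD library 4. That of the oxidation list was 0.65 and 0.75 in the same runs. Genes of heat production, or thermogenesis, overlapped with these lists: 8 of 15 rose in KO fat and 1, the transcription factor gene Ebf2, fell, with a median log2 fold change of 1.49 in KO and 1.31 in WT. The difference from WT was called above 0 for 3 and below 0 for 1, Elovl3. Elovl3 rose by 3.75 in KO, and its difference was -3.71 (adjusted p = 0.0211), or -2.05 in limma voom, where it was not called (adjusted p = 0.236). Cidea, a lipid droplet protein of brown fat, had 9.17 to 33.4 CPM in KO HFD and 3.53 to 8.28 CPM in KO chow libraries (1.49 ± 0.26, adjusted p = 4.24e-05), and the difference from WT was 1.83 ± 0.36 (adjusted p = 0.000682). Otop1, a proton channel gene of brown fat, had 7.5 to 13.5 CPM in KO HFD and 0.131 to 1.46 CPM in KO chow libraries, and it rose in both genotypes (4.58 in KO and 5.59 in WT). Ucp1, the uncoupling protein that defines brown fat, stayed low, at 1.32 to 3.13 CPM in KO HFD and 0 to 4.72 CPM in KO chow libraries. Its KO log2 fold change of 1.55 ± 0.83 was not called (adjusted p = 0.138).

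Genes of lipid synthesis and storage rose in KO fat more often than they fell. In triglyceride synthesis and glyceroneogenesis, the making of the glycerol backbone, 8 of 14 rose and 4 fell, and the difference from WT was above 0 for 10 and below 0 for 0. Dgat2, which adds the last fatty acid to triglyceride, had 1776, 2678 and 4369 CPM in the lowest, median and highest KO HFD library, against 788, 868 and 1431 CPM in KO chow libraries. It rose 2.55-fold without overlap of the groups (1.35 ± 0.19, adjusted p = 2.51e-06), while its WT log2 fold change of 0.41 was not called and the difference was 0.94 ± 0.26 (adjusted p = 0.012). Mogat2, a monoacylglycerol acyltransferase, rose 13.7-fold, with 17.7 to 45.9 CPM in KO HFD and 0.786 to 4.74 CPM in KO chow libraries. Gpd1, which supplies glycerol phosphate, rose 3.3-fold, and its difference from WT was not called (0.69 ± 0.25, adjusted p = 0.0554).

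The falls in that list were Pck1, Mogat1, Gpat3 and Gpam. Pck1, the enzyme that starts glyceroneogenesis, had 703, 855 and 1302 CPM in the lowest, median and highest KO HFD library, against 1413, 2142 and 2746 CPM in KO chow libraries. All 8 KO HFD libraries lay below the chow range (-1.18 ± 0.20, adjusted p = 3.04e-05), but the fall was 1.71 ± 0.28 less deep than in WT (adjusted p = 8.17e-05). Among 10 lipid droplet proteins 6 rose in KO fat, led by Plin2, which coats growing droplets, at 786 to 2034 CPM in KO HFD and 148 to 266 CPM in KO chow libraries (2.64 ± 0.20, adjusted p = 1.96e-11). Plin5, which ties droplets to mitochondria, rose by 1.40 ± 0.22 (adjusted p = 7.69e-06) and differed from WT by 1.08 ± 0.29 (adjusted p = 0.00991). Plin2 also rose in WT (2.93), and the difference of -0.28 ± 0.25 was not called (adjusted p = 0.535). Without KO HFD library 4 the triglyceride list gave 5 rises and 4 falls and the droplet list 4 rises and 2 falls. With library totals these lists gave 5 rises and 5 falls, and 4 rises and 2 falls.

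De novo lipogenesis, the making of fatty acids from sugar, had 8 rises and 0 falls among 20 genes in KO fat, with a median log2 fold change of 0.49, against 7 rises and 8 falls in WT fat. In KO fat library totals gave 7 rises and 2 falls (median 0.23). Without KO HFD library 4 there were 7 rises and 1 fall (0.34), and in limma voom 8 and 1 (0.35). Scd2, a fatty acid desaturase, had 1201 to 2158 CPM in KO HFD and 387 to 618 CPM in KO chow libraries and rose in both genotypes (1.63 in KO and 1.33 in WT). Thrsp, a lipogenic regulator, rose by 0.69 ± 0.23 in KO (adjusted p = 0.0191) and fell by 1.84 in WT, a difference of 2.53 ± 0.33 (adjusted p = 4.32e-06). The KO call of Thrsp was lost without KO HFD library 4 and with library totals, and the difference was not. Fasn (0.64) and Acly (0.42), the core enzymes, did not pass in KO.

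Cholesterol synthesis responded in both genotypes. In KO fat 12 of 18 genes rose and 1, the regulator gene Srebf2 (-0.43), fell, with a median log2 fold change of 0.69, against 15 rises and 1 fall in WT. The difference was called below 0 for 5, among them Dhcr7 (-0.78, adjusted p = 0.0206), and above 0 for 1. Insig1, a sterol sensor partner and SREBP target, had 336, 404 and 503 CPM in the lowest, median and highest KO HFD library, against 61.5, 111 and 138 CPM in KO chow libraries. The groups were far apart, the rise was 3.72-fold (1.90 ± 0.15, adjusted p = 4.95e-11), and the difference from WT was -0.06 ± 0.20 (adjusted p = 0.903).

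The promoter of Hmgcs1, an early enzyme of the pathway, is shown because it held the sterol response element TCACNCCAC that SREBP factors are known to bind, in capitals, 137 bases before the start of the gene. Hmgcs1 rose in KO fat by 1.48 ± 0.21 (adjusted p = 1.86e-06). The stretch is the RefSeq GRCm38.p6 window from 250 bases before to 50 bases after the start, chr13:119690101-119690400, plus strand. Of 12 cholesterol genes whose window RefSeq gave, 1 held the motif on either strand (8.33%), against 1.42% of 11880 tested genes.
Hmgcs1: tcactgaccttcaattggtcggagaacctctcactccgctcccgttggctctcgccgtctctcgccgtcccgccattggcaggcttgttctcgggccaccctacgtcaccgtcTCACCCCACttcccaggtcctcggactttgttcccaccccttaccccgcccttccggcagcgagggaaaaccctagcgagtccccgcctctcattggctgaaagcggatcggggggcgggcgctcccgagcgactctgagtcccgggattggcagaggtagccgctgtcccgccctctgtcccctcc

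Most genes of lipolysis and of fat cell identity fell in WT fat, while in KO fat the calls went in both directions. Of 16 lipolysis genes 4 rose and 2 fell in KO, with a median log2 fold change of 0.08 (-0.08 without KO HFD library 4, and -0.17 with library totals, 3 rises and 6 falls). In WT 1 rose and 9 fell, with a median of -0.76, and the difference was above 0 for 12 and below 0 for 0. Adrb3, the beta-3 adrenergic receptor that starts lipolysis, had 145, 216 and 351 CPM in the lowest, median and highest KO HFD library and 353, 487 and 648 CPM in KO chow libraries. It fell in KO (-1.04 ± 0.23, adjusted p = 0.000627), with every KO HFD library below the chow range, but fell further in WT, to 38.2 ± 13.8 CPM on HFD against 479 ± 130 CPM on chow (SD, n = 8 each). The difference was 2.61 ± 0.32 (adjusted p = 2.52e-06).

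Pnpla2 and Lipe, the lipases of the first and second step of lipolysis, were not called in KO fat (0.31 and -0.08), with 95% intervals of -0.06 to 0.68 and -0.40 to 0.24. In WT both fell (-0.80 and -1.07), and the differences were 1.11 ± 0.26 (adjusted p = 0.00315) and 0.99 ± 0.23 (adjusted p = 0.0023). Mgll, the monoglyceride lipase of the last step, rose in KO without overlap, with 1677 to 3548 CPM in KO HFD and 912 to 1495 CPM in KO chow libraries (0.99 ± 0.15, adjusted p = 6.91e-06). Of 14 genes of fat cell identity 4 rose and 1 fell in KO, with a median of 0.14 (-0.11 with library totals, 3 rises and 6 falls), against 1 rise and 10 falls in WT. Without KO HFD library 4 there were 3 rises and 3 falls in KO. Slc2a4, the insulin-driven glucose transporter GLUT4, had 175 to 392 CPM in KO HFD and 159 to 239 CPM in KO chow libraries, which overlapped (0.35 ± 0.16, adjusted p = 0.0791). In WT it fell by 1.59, and the difference was 1.94 ± 0.23 (adjusted p = 1.06e-06).

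Branched-chain amino acid breakdown, a pathway of mature fat cells, likewise had most of its falls in WT fat. In KO fat 2 of 17 genes rose and 2 fell, with a median log2 fold change of 0.09 (-0.16 with library totals and -0.04 without KO HFD library 4), against 1 rise and 13 falls in WT with a median of -0.89. The difference was above 0 for 13 genes. Ivd, the isovaleryl-CoA dehydrogenase of leucine breakdown, had 150, 172 and 297 CPM in the lowest, median and highest KO HFD library and 167, 193 and 254 CPM in KO chow libraries. These ranges overlapped (-0.10 ± 0.13, adjusted p = 0.556; without KO HFD library 4 -0.27, adjusted p = 0.0352), while Ivd fell by 1.71 in WT (difference 1.61 ± 0.18, adjusted p = 9.72e-07). In insulin signalling 5 of 14 genes fell in KO fat, among them Irs1 (-0.62), Irs2 (-0.54) and Insr (-0.56), and 2 rose, against 4 rises and 10 falls in WT. With library totals 1 of the 14 rose and 8 fell in KO.

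Hormones of fat cells divided. Lep, which encodes leptin, the hormone that reports fat stores, had 1951, 2845 and 3519 CPM in the lowest, median and highest KO HFD library, against 469, 671 and 1300 CPM in KO chow libraries. All KO HFD libraries lay above the chow range, the rise was 3.6-fold (1.85 ± 0.24, adjusted p = 5.58e-07), and WT rose by 1.64 (difference 0.21 ± 0.32, adjusted p = 0.762). Cfd, which encodes adipsin, fell 10.4-fold in KO fat, with 250 to 947 CPM in KO HFD and 3165 to 5472 CPM in KO chow libraries (-3.38 ± 0.27, adjusted p = 5.26e-11), 1.85 ± 0.35 less than in WT (adjusted p = 0.000378). Retn, the resistin gene, had 512, 620 and 1301 CPM in the lowest, median and highest KO HFD library and 659, 827 and 1085 CPM in KO chow libraries. The groups overlapped and the KO response was not called (-0.26 ± 0.18, adjusted p = 0.259), though it was without KO HFD library 4 (-0.49, adjusted p = 0.00847), against a fall of 2.46 in WT (difference 2.20 ± 0.26, adjusted p = 1.06e-06). Adipoq, the adiponectin gene, was likewise not called in KO (-0.24 ± 0.18; without KO HFD library 4 -0.42, adjusted p = 0.0401) and fell by 1.21 in WT (difference 0.97 ± 0.25, adjusted p = 0.00724). Over the 11 adipokine genes tested 4 rose and 2 fell in KO, with a median of 0.17 (-0.08 with library totals, 3 rises and 5 falls), and 4 fell without KO HFD library 4.

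Cyp2e1, an oxidase of liver and fat, was among the widest splits between the genotypes. It had 2416 to 7012 CPM in KO HFD and 3026 to 7235 CPM in KO chow libraries, with overlap (-0.18 ± 0.42, adjusted p = 0.76). In WT it fell to 159 ± 162 CPM on HFD against 3833 ± 1235 CPM on chow (SD, n = 8 each), and the difference was 4.41 ± 0.62 (adjusted p = 1.44e-05). The other liver markers, Alb and Ahsg, were not called in KO fat, and WT HFD libraries 4 and 5 carried liver transcript. Nrg4, a fat-derived growth factor, had 25.2 to 41.3 CPM in KO HFD and 20.9 to 36.9 CPM in KO chow libraries (0.17 ± 0.15, adjusted p = 0.381) and fell by 1.76 in WT (difference 1.93 ± 0.21, adjusted p = 4.15e-07).

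**Figure D4:**
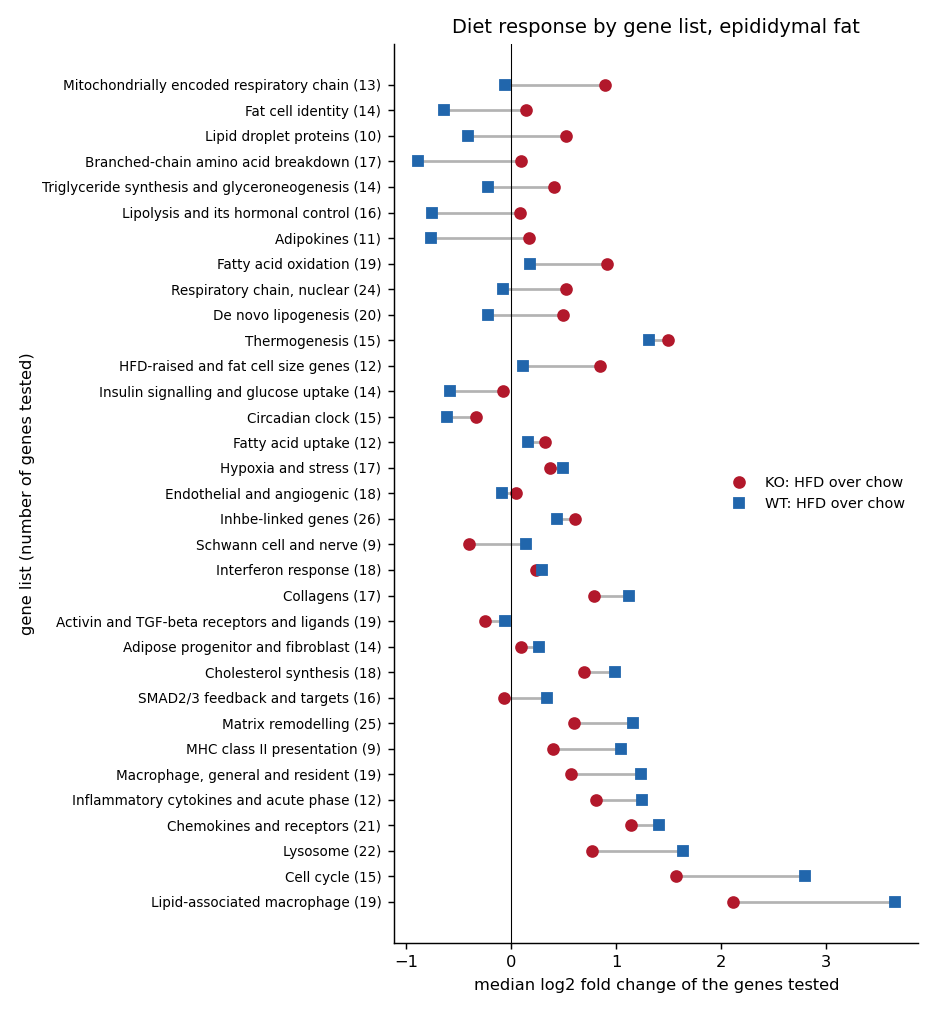
Median log2 fold change of HFD over chow of the genes tested in each list (number in brackets), in KO fat (circles) and WT fat (squares), ordered by the median difference between the genotypes. Circles of the lists on mitochondria, lipolysis, fat cell identity and lipid storage lie to the right of their squares, and circles of macrophage, lysosome, matrix and cell cycle lists lie to the left but above 0. With library totals in place of TMM the KO medians of lipolysis, fat cell identity, adipokines, branched-chain amino acid breakdown, interferon response, progenitor and fibroblast, and endothelial genes were below 0.

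Macrophage genes rose in KO fat, less than in WT fat. Of 19 lipid-associated macrophage genes 16 rose and 0 fell in KO, with a median log2 fold change of 2.11 against 3.65 in WT. The difference was below 0 for 15 and above 0 for 0, and Lpl (0.07), Cd63 (0.14) and Apoe (-0.27) did not pass in KO, but Apoe did without KO HFD library 4 (-0.46, adjusted p = 0.0102). Trem2, the lipid receptor that marks these cells, had 13.7, 34.5 and 51.2 CPM in the lowest, median and highest KO HFD library, against 1.97, 4.39 and 4.77 CPM in KO chow libraries. All KO HFD libraries were above the chow range and far below the WT HFD range of 124 to 184 CPM. The rise was 8.96-fold (3.16 ± 0.24, adjusted p = 3.92e-11), and the difference from WT was -1.77 ± 0.31 (adjusted p = 0.000191). Gpnmb, a glycoprotein of lipid-laden macrophages, had 180.5 to 649 CPM in KO HFD and 18.4 to 81.6 CPM in KO chow libraries (3.56 ± 0.30, adjusted p = 2.18e-10; difference -2.45 ± 0.37, adjusted p = 3.32e-05).

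Among 19 general and resident macrophage genes 11 rose and 4 fell in KO fat. Cd68, a macrophage lysosomal protein, had 97.1 to 263 CPM in KO HFD and 21.6 to 44.7 CPM in KO chow libraries (2.53 ± 0.21, adjusted p = 2.31e-10; difference -1.36 ± 0.28, adjusted p = 0.000901). Adgre1, which encodes F4/80, had 77.6 to 236 CPM in KO HFD and 29 to 52.6 CPM in KO chow libraries (1.74 ± 0.21, adjusted p = 1.79e-07). The 4 falls, Cd163, Lyve1, Retnla and Mertk, are genes known from resident macrophages, and each also fell in WT. Cd163 had 36.3 to 115 CPM in KO HFD and 104 to 175 CPM in KO chow libraries, which overlapped slightly (-1.07 ± 0.23, adjusted p = 0.000407). The rises numbered 7 rather than 11 with an epididymis or a skeletal muscle score as covariate, and 7 with library totals.

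Of 21 chemokine genes 14 rose and 1 fell in KO fat, against 16 rises and 0 falls in WT, and with library totals 10 rose and 4 fell in KO. Ccl2, which draws monocytes, had 5.67 to 15.5 CPM in KO HFD and 1.18 to 3.96 CPM in KO chow libraries (2.12 ± 0.30, adjusted p = 2.28e-06). Its receptor gene Ccr2 was the fall, with 13.3, 23.7 and 40.6 CPM in the lowest, median and highest KO HFD library and 27.9, 43.3 and 48.3 CPM in KO chow libraries. The ranges overlapped in 2 KO HFD libraries (-0.71 ± 0.22, adjusted p = 0.0113), and the difference from WT was -1.04 ± 0.30 (adjusted p = 0.0159). Hp, the acute phase protein haptoglobin, moved in opposite directions: it fell in KO (-0.56 ± 0.17, adjusted p = 0.0101) and rose in WT (1.20), a difference of -1.75 ± 0.24 (adjusted p = 7.23e-06). The KO fall of Hp was lost with a skeletal muscle score as covariate.

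Other immune cell markers differed by type. Of 10 T cell markers 7 rose in KO fat, with summed levels of 24.9 to 96.3 CPM in KO HFD and 14.1 to 24.6 CPM in KO chow libraries. With limma voom 3 of them rose. Of 6 mast cell markers 0 rose and 0 fell in KO, against 4 rises in WT, and the difference was below 0 for those 4. Cpa3, the mast cell carboxypeptidase, had 4.17 to 16.5 CPM in KO HFD and 6.87 to 13 CPM in KO chow libraries, with full overlap (-0.01 ± 0.24, adjusted p = 0.977, 95% interval -0.48 to 0.46), and it rose by 1.62 in WT (difference -1.63 ± 0.33, adjusted p = 0.000778). Of 9 MHC class II genes 2 rose in KO fat, H2-DMb1 and Ciita, against 8 in WT, and the difference was called for H2-DMb1. Differences below 0 numbered 6 without KO HFD library 4, 6 with library totals and 6 in limma voom. Mesothelium markers fell in both genotypes, 5 of 8 in each.

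Lysosome genes rose nearly as a whole list, 21 of 22 in KO fat and 22 of 22 in WT fat, with medians of 0.77 and 1.63. Lamp2 (-0.06) was the exception in KO, and the difference was below 0 for 15 genes and above 0 for 0. Ctsd, the aspartic protease cathepsin D, had 1550, 2227 and 3705 CPM in the lowest, median and highest KO HFD library and 737, 876 and 1211 CPM in KO chow libraries. Every KO HFD library was above the chow range (1.27 ± 0.16, adjusted p = 3.39e-07), and the difference from WT was -0.95 ± 0.22 (adjusted p = 0.00236). Lipa, the acid lipase that frees fatty acids in lysosomes, had 168 to 347 CPM in KO HFD and 65.9 to 96.7 CPM in KO chow libraries, a 3.32-fold rise (difference -1.36 ± 0.19, adjusted p = 1.45e-05).

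The CLEAR element, which the lysosomal regulator TFEB is known to bind, has the palindromic core TCACGTGA. Of 15 lysosome genes whose RefSeq GRCm38.p6 promoter window was given, 5 held it (33.3%), against 2% of 11880 tested genes. The windows of 3 of these genes are shown with the core in capitals because their KO rises were also below those in WT by the test of the difference. Ctsd (chr7:142387778-142388077, minus strand) held it 99 bases before the start, Ctsa (chr2:164833523-164833822, plus strand) held it in 2 places, first 13 bases before the start, and Atp6v1a (chr16:44139210-44139509, minus strand) 132 bases before it.
Ctsd: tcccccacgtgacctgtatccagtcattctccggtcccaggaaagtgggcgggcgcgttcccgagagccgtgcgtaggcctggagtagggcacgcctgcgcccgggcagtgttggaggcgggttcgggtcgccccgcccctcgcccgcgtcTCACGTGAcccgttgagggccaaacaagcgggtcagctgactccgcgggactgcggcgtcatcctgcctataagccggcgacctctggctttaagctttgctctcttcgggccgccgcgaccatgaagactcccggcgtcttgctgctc
Ctsa: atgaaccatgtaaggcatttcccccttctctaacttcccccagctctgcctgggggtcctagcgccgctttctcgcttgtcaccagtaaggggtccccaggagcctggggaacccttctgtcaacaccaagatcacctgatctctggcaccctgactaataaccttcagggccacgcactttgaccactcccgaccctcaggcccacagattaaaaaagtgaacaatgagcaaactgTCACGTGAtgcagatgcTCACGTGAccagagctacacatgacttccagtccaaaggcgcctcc
Atp6v1a: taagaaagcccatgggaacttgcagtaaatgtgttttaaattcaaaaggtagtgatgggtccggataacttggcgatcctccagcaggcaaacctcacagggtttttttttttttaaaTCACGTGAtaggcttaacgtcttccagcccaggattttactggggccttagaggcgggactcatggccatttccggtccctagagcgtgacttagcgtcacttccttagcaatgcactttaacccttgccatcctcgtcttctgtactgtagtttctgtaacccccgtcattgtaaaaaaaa
Ctsa, the protective protein cathepsin A, rose in KO fat by 0.65 ± 0.13 (adjusted p = 0.000286). Atp6v1a, a subunit of the proton pump that acidifies lysosomes, rose by 0.72 ± 0.16 (adjusted p = 0.000643). The other holders of the core, Atp6v0d1 and Mcoln1, rose by 0.67 ± 0.12 and 0.40 ± 0.10, the call of Mcoln1 being lost with library totals. A further motif searched, the ERR element TCAAGGTCA, was held by 1 of 17 nuclear respiratory chain genes with a window (5.88%). It was held by 0 of 15 fatty acid oxidation genes, against 0.328% of 11880 tested genes. A match is a description of these letters and not a bound site.

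Matrix genes rose in both genotypes. Of 17 collagen genes 13 rose and 0 fell in KO fat, against 16 and 0 in WT, with medians of 0.79 and 1.12. The difference was called below 0 for 7 of them and above 0 for 0. Col6a3, a collagen of enlarging fat, had 465.8, 688 and 952.5 CPM in the lowest, median and highest KO HFD library and 181, 236 and 292.5 CPM in KO chow libraries. The groups did not overlap (1.49 ± 0.15, adjusted p = 3.86e-09), and the difference from WT was -0.21 ± 0.20 (adjusted p = 0.568). Col12a1, a collagen that sits on the surface of fibrils, had 15.5 to 31.4 CPM in KO HFD and 12.5 to 38.8 CPM in KO chow libraries, with full overlap (0.09 ± 0.20, adjusted p = 0.753). It rose by 1.72 in WT, a difference of -1.63 ± 0.28 (adjusted p = 0.000163). Of 25 matrix remodelling genes 16 rose and 3 fell in KO, with Timp1, an inhibitor of matrix proteases, at 5.47 to 19.6 CPM in KO HFD and 1.77 to 3.71 CPM in KO chow libraries (1.99 ± 0.25, adjusted p = 3.52e-07). Over these 25 genes the difference was called below 0 for 9 and above 0 for 1.

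Cell cycle genes gave a complete count. All 15 rose in KO fat and all 15 in WT fat, with medians of 1.57 and 2.80, and the difference was below 0 for 14, the exception being Ccne1. Ccna2, the cyclin of DNA replication, had 7.15, 7.99 and 14.4 CPM in the lowest, median and highest KO HFD library, against 2.45, 2.61 and 3.54 CPM in KO chow libraries. The KO HFD libraries lay between the chow range and the WT HFD range of 19 to 32.4 CPM. The rise was 3.15-fold (1.66 ± 0.14, adjusted p = 3.48e-10), with a difference of -1.57 ± 0.19 (adjusted p = 2.28e-06). The macrophage, lysosome, collagen and cell cycle counts moved by less than 1.5 times in each alternative run, apart from the general macrophage list given above.

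**Figure D5:**
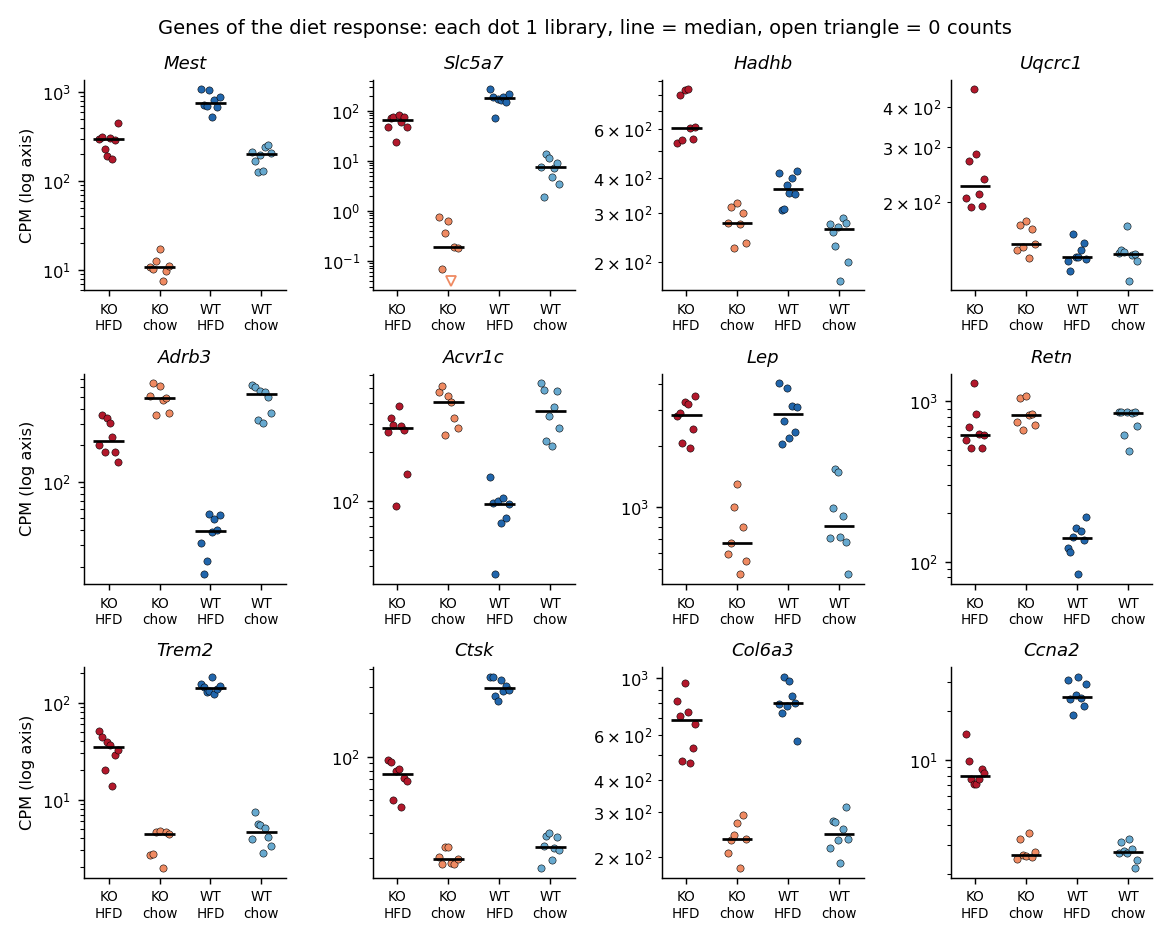
CPM (log axes) of 12 genes in each epididymal library by group, with the group median as a line. An open triangle marks the 1 KO chow library in which Slc5a7 had 0 counts. Trem2, Ctsk and Ccna2 in KO HFD libraries lie between chow and WT HFD, Lep and Col6a3 reach the WT HFD range, Retn and Acvr1c overlap the chow range with some lower libraries, and Hadhb and Uqcrc1 are higher in KO HFD than in the other 3 groups.

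Genes of the activin and TGF-beta pathway stand beside a share of 38.7% of all genes tested that were called in KO fat. Of 16 SMAD2/3 feedback and target genes 3 rose and 2 fell in KO fat, against 7 rises and 0 falls in WT, and the difference was below 0 for 3, Nedd9, Tgfb1 and Col1a1. Smad7 (-0.58), the inhibitory SMAD, and Skil (-0.54), a SMAD corepressor, were the falls. Tgfb1, the ligand that gives the family its name, had 34.7 to 91.2 CPM in KO HFD and 26.7 to 37.3 CPM in KO chow libraries, which overlapped (0.75 ± 0.15, adjusted p = 0.000306), and its difference from WT was -1.14 ± 0.21 (adjusted p = 0.000323). Pmepa1, a feedback target, had 38.5 to 50.9 CPM in KO HFD and 36.3 to 56 CPM in KO chow libraries (0.08 ± 0.13, adjusted p = 0.651), against 216 to 315 CPM in WT HFD and 123 to 263 CPM in WT chow libraries. Its response in WT was 0.58, and the difference lay at the threshold (-0.51 ± 0.18, adjusted p = 0.053). It passed without KO HFD library 4 (-0.56, adjusted p = 0.0223), with library totals (-0.66, adjusted p = 0.00896) and in DESeq2 (-0.51, adjusted p = 0.0257), and did not in limma voom (-0.36, adjusted p = 0.145). Inhba, another activin chain, fell in KO (-1.37), and the difference from WT was not called. With library totals the SMAD list gave 3 rises and 5 falls in KO, and its differences below 0 numbered 5, as they did without KO HFD library 4.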

How the data were processed

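RNA was measured by mRNA sequencing of epididymal fat, with libraries made by KAPA mRNA HyperPrep and adapters with molecular identifiers, per the labels' protocols. The authors deposited estimated counts per gene in tables, in which 2.96% of the values were not whole (tolerance 1e-06), so the values were rounded here. The build was mm10, per the submitters' processing notes. The sources used here do not give the aligner, the counter or any use of the molecular identifiers. Raw counts had been assumed when the test was planned, and the same test was used. Counts stand per Entrez gene ID, and 24375 of 24475 IDs were paired with a symbol through RefSeq GRCm38.p6. Whether counting used strand is not given, so genes that overlap or have near copies are uncertain.

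Low genes were removed with filterByExpr (at least 10 counts in enough libraries, at least 15 in all). The rest were tested after TMM scaling in edgeR 4.0.16 (R 4.3.3) with glmQLFit (robust) and glmQLFTest on all 31 epididymal libraries of the KO experiment, with Benjamini-Hochberg adjustment over 15042 genes. The SE is the absolute log2 fold change over the square root of F, and a 95% interval is 1.96 SE either way. KO libraries held 12970509 to 17444358 counts, floors of 3 counts cover counting error only, and no pair of libraries within a KO group agreed within sampling noise. The biological coefficient of variation was 0.341. The fit was tested on simulated counts with known changes.

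The genes chosen by rule are Inhbe and Acvr1c, the called genes of at least 1 CPM on average with the strongest log2 fold changes (10 upward, 10 downward), up to 5 members of each list by smallest p, the 8 smallest adjusted p of each sign of the difference, 2 members per marker list, and all Inhbe-linked and activin genes. Other genes, given with levels or by a log2 fold change alone, were named after their values were seen. Among those with levels are Fabp4, Adipoq, Ucp1, Slc2a4, Pck1, Cpa3 and Col12a1. The members, the lists and the tests were chosen with earlier results of these data known. Alternatives were DESeq2's size factors in edgeR, no filter on counts, a block for the replicate number, an epididymis marker score as covariate, the 2 groups alone, DESeq2 1.42.0 and limma 3.58.1 voom with quality weights. Chosen after seeing the data were library totals, a skeletal muscle score as covariate, and fits without KO HFD library 4, without KO HFD libraries 4 and 8 and WT HFD library 3, and without WT HFD libraries 4 and 5.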

Additional observations from a re-analysis of the deposited data

Results flagged for a closer look

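Single libraries stood apart in a few measures, each by its gap to the nearest library of its group, a criterion that chance meets in about 1 of 20 groups, and 30 groups were tested. KO HFD library 4 had an interquartile width of 1.44 around its group on the log2 scale, against 0.25 to 0.52 in the other 7. KO HFD library 1 was highest for T cell markers, at 96.29 CPM summed against 24.9 to 55 CPM in the other KO HFD libraries, for mast cell markers, at 82.19 CPM against 41.2 to 59.8 CPM, and for skeletal muscle markers, at 1536 CPM against 95.7 to 672 CPM. KO chow library 4 was highest of its group for T cell markers, at 24.6 CPM against 14.1 to 18.3 CPM. What set these libraries apart was not tested.

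The 16 genes given next had the smallest adjusted p, 8 of each sign, in the test of the difference between the KO and the WT diet response. Above 0 stood Mest with a difference of 2.57 (4.64 in KO and 2.07 in WT), Car1, a carbonic anhydrase gene, with 2.55 (0.35 and -2.21), Disp2 with 2.48 (-0.40 and -2.87) and Retn with 2.20 (-0.26 and -2.46). Ces1d, a carboxylesterase of fat and liver, had a difference of 2.16 (-0.24 in KO and -2.41 in WT), Nrg4 one of 1.93 (0.17 and -1.76), Ivd one of 1.61 (-0.10 and -1.71) and Aldh5a1, an aldehyde dehydrogenase gene, one of 1.24 (0.33 and -0.91). Of these 8 genes Mest and Aldh5a1 rose in KO, and the other 6 were not called there. Below 0 stood Ctsk with -1.81 (1.84 in KO and 3.65 in WT), Blnk, an adaptor of B cells and macrophages, with -1.71 (1.30 and 3.02), Myo1e with -1.71 (1.52 and 3.23) and Cd9 with -1.49 (0.38 and 1.87). Gla, a lysosomal galactosidase, had a difference of -1.40 (1.11 in KO and 2.51 in WT), Creg1 one of -1.29 (0.48 and 1.76), Stxbp2 one of -1.06 (-0.30 and 0.76) and C2cd2 one of -1.05 (0.08 and 1.13).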

How the results depend on the processing

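The count of KO rises was 2020 and that of KO falls 5035 with library totals, where the scaling moves every gene, and both counts were within 1.5 times of 3719 and 2098 under the other alternatives run. Genes whose KO response lay below the WT one, 1309 here, numbered 2351 with library totals, 2091 without KO HFD library 4, 2253 without KO HFD libraries 4 and 8 and WT HFD library 3, and 2259 in limma voom with quality weights, and the cause was not tested. Of the 5817 KO calls 4118 (70.8%) kept their direction and call with library totals, 4271 (73.4%) with only the 2 groups compared, 4366 (75.1%) with the epididymis score, 4791 (82.4%) with the skeletal muscle score and 5075 (87.2%) without KO HFD library 4. The difference of Ahsg was 0.32 (adjusted p = 0.824) and that of Alb 3.44 (adjusted p = 5.11e-07) without WT HFD libraries 4 and 5, against -4.34 and -5.51 with them, so both rested on those libraries, and Alb was at 0.24 (adjusted p = 0.946) in limma voom. With the replicate number as a block (replicate block) 3721 genes rose and 2030 fell, 5458 (93.8%) of the KO calls being kept. The numbers were not taken as pairs: same-numbered KO HFD and KO chow libraries deviated together with correlations of -0.279 to 0.531 over 7 numbers, and 1 of the 7 correlated best with its own number. Precision is limited by 7 and 8 libraries a group and, for genes near 0.2 CPM, by depth.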

Other observations

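Fatty acid uptake genes rose or were not called in KO fat, 5 of 12 upward and 0 downward. Fabp5, a fatty acid carrier of macrophages and fat cells, had 314, 414 and 682 CPM in the lowest, median and highest KO HFD library, against 77.8, 86.3 and 125 CPM in KO chow libraries (2.19 ± 0.17, adjusted p = 4.59e-11; difference from WT -0.41 ± 0.22, adjusted p = 0.233, and -0.57, adjusted p = 0.0262, without KO HFD library 4). Of 17 hypoxia and stress genes 8 rose and 2 fell, or 4 without KO HFD library 4. Atf3, a stress transcription factor, had 18.6 to 53.2 CPM in KO HFD and 3.8 to 5.51 CPM in KO chow libraries, without overlap (2.98 ± 0.21, adjusted p = 7.33e-12), and its rise was smaller than in WT by the test of the difference (-1.63 ± 0.27, adjusted p = 9.77e-05). Of 12 inflammatory cytokine and acute phase genes 4 rose and 3 fell in KO, with Il1rn, the interleukin 1 receptor antagonist, at 10.5 to 29.2 CPM in KO HFD and 0.393 to 1.81 CPM in KO chow libraries (4.25 ± 0.39, adjusted p = 9.94e-10). Tnf passed narrowly, with ranges that overlapped (1.01 ± 0.40, adjusted p = 0.0468), and did not pass without KO HFD library 4 (adjusted p = 0.0618).

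Of 15 circadian clock genes 1 rose and 4 fell in KO fat, against 0 and 10 in WT. The difference from WT was called above 0 for 5 and below 0 for 1, Npas2, with a median of 0.43 over the list. With library totals 0 rose and 7 fell in KO. With an epididymis or a skeletal muscle score as covariate 1 rose and 2 fell there. Npas2, a partner of the core clock factor Bmal1, had 1.48 to 3.68 CPM in KO HFD and 2.78 to 7.46 CPM in KO chow libraries (-0.85 ± 0.25, adjusted p = 0.00817), and the difference from WT was -1.37 ± 0.35 (adjusted p = 0.00568). The hour of sampling is not in the labels. Of 18 endothelial and angiogenic genes 3 rose and 3 fell, with a median between -0.20 and 0.06 over the alternatives run. Angpt1, a vessel-stabilising ligand, had 5.07 to 29.3 CPM in KO HFD and 34.8 to 58.6 CPM in KO chow libraries (-1.53 ± 0.27, adjusted p = 4.43e-05) and fell in WT too, by 1.48, a difference of -0.05 ± 0.37 (adjusted p = 0.954). Among the remaining lists 6 of 18 interferon response genes rose and 0 fell, 4 of 14 progenitor and fibroblast genes rose and 1 fell (2 and 4 without KO HFD library 4, 2 and 6 with library totals), 2 of 9 Schwann cell and nerve genes rose and 1 fell, and 5 of 12 genes linked to fat cell size rose and 2 fell. In the activin and TGF-beta receptor and ligand list 4 of 19 rose and 3 fell. Of the marker lists, brown fat gave 5 rises of 6, B cell 5 of 9, neutrophil 2 of 3 and dendritic cell 1 of 8, with 3 dendritic cell falls. Smooth muscle gave 1 rise and 1 fall of 9, epididymis 1 fall of 7, testis germ cell 2 falls of 6 and liver neither of 3. Epididymis falls numbered 10 with no low count filter and 9 in DESeq2, both of which test more than 7 genes of the list, and testis falls 4 without KO HFD library 4 or with library totals. The B cell rises numbered 1 with an epididymis or a skeletal muscle score as covariate. Summed B cell and lymph node markers did not rise, at 34 to 108 CPM in KO HFD (median 62.9) and 60.7 to 87.4 CPM in KO chow libraries (median 68.1).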
